A study of Mus musculus with 72 samples.

Results

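Genes of the enteric nervous system were followed across 72 Affymetrix arrays of colon from wild type Balb/c mice, 1 array per mouse. The set was a fixed list of 32 genes of enteric neurons and glia, taken by name, and each gene was read from its brightest probe set among those annotated with a single symbol. All 32 had such a probe set, and 26 lay above the intensity filter (a mean of at least 2.42 on the log2 scale), out of 18193 genes on the array and 12534 above the filter. The other 6, Elavl3, Npy, Nefm, Gfra3, Sox10 and Foxd3, are given by level only.

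Of the mice, 64 had colitis 4 days after TNBS (trinitrobenzene sulfonic acid, given rectally at 70 µg/g), a hapten used to inflame the rodent colon. These fell into 5 groups by what was injected beforehand: nothing (untreated, n = 8), an IgG2a antibody to human CD20 as control antibody (10 mg/kg, n = 15), TNFR-Ig (0.3 mg/kg, n = 12), the anti-TWEAK antibody mP2D10 (10 mg/kg, n = 14), or the same amounts of both TNFR-Ig and mP2D10 (the combination, n = 15). TNFR-Ig is a soluble TNF receptor fusion protein, TWEAK is another cytokine related to TNF, and mice given TNFR-Ig alone or left untreated received no antibody. The remaining 8 mice were naive, with no TNBS. Experiment 7 had 34 of the arrays and experiment 10 had 38, including every naive mouse. RNA came from pieces of rolled, frozen colon, so that of neurons and glia was mixed with that of muscle, epithelium and immune cells. Fewer neural cells, less RNA per neural cell and a larger share of RNA from other cells cannot be told apart.

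The enteric nervous system lies in the gut wall as ganglia of the myenteric plexus between the muscle layers and of the submucosal plexus nearer the lumen. Its neurons drive and coordinate contraction, secretion and blood flow through acetylcholine, nitric oxide and neuropeptides, and glial cells related to Schwann cells and astrocytes surround them. Both arise from neural crest cells that depend on signalling through the receptors Ret and Ednrb.

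The labelled cell types were checked against their defining markers. Of the neuronal markers, Elavl4, Uchl1, Tubb3, Prph and Snap25 were above the filter, while Elavl3 lay within 0.1 of the floor of the values (2.08) on 64 arrays. Of the glial markers, Foxd3 was at the floor on all 72 arrays and Sox10 within 0.1 of it on 62. S100b and Gfap passed the filter narrowly, at means of 2.59 and 2.60. The glial side of the list was therefore carried by Cdh19 and Cnp, and Cnp is also made by many cells outside the nervous system. Outside the glial genes, Npy reached 3.83 and Gfra3 2.54 at most, and Nefm was within 0.1 of the floor on 69 arrays. The further probe sets of Gfra1, S100b and Prph were within 0.1 of the floor on all 72 arrays and that of Gad2 on 71. These genes thus rest on a single probe set. Some probe sets also returned the same value on many arrays. For S100b 44 arrays lay within 0.02 of 2.54, for Gap43 35 within 0.02 of 2.90 and for Gfap 31 within 0.02 of 2.56. For Prph 18 lay within 0.02 of 5.42, for Syt1 17 within 0.02 of 3.24 and for Gad2 8 within 0.02 of 4.56. Other arrays went lower, to 2.08 for S100b and Gfap, 2.58 for Gap43, 4.02 for Prph, 2.65 for Syt1 and 2.97 for Gad2. The repeated values were thus not lower bounds, and why they recur was not tested.

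**Figure D1:**
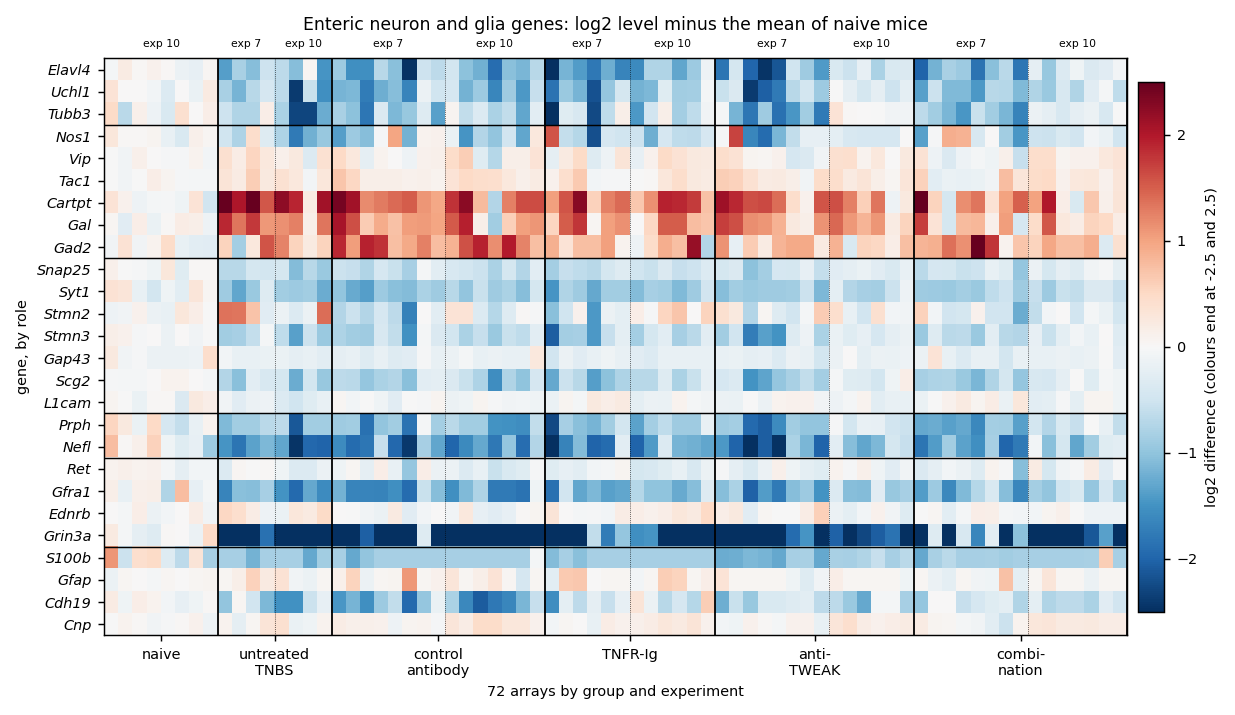
Log2 level of each of the 26 genes above the filter minus that gene's mean in naive mice, 1 column per array, ordered by group and experiment (exp 7 and exp 10); horizontal lines separate the roles pan-neuronal, transmitter and neuropeptide, vesicle and adhesion, intermediate filament, receptor, and glia. Blue (lower) prevails in all 5 colitic groups for the pan-neuronal and filament genes, the vesicle and adhesion genes other than Stmn2 and L1cam, and Grin3a and Gfra1. Red (higher) prevails for Cartpt and Gal.

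The comparison of untreated colitic with naive mice asked what TNBS colitis changed. Most genes of the neuronal cell body, the synaptic vesicle and the neurofilament fell, as did the receptor genes Grin3a and Gfra1 and the glial genes S100b and Cdh19. The neuropeptide genes Cartpt, Gal and Tac1 rose. The labels give no cage or litter, and p-values measure the spread between these mice. In all, 17 of the 26 tested genes changed, 13 lower and 4 higher, at an adjusted p under 0.05, while 47.8% of all genes tested changed, 25.6% lower and 22.2% higher. The median change of the 26 was -0.54 on the log2 scale, against -0.01 over all genes tested. For 8 of the 26 (Uchl1, Snap25, Scg2, Prph, Nefl, Gfra1, Grin3a and S100b) every untreated array lay below every naive array, and for none did every untreated array lie above; groups that did not overlap were found for 15.9% of all genes tested. The mean level of the 26 genes was 7.59 to 7.88 in naive and 6.80 to 7.52 in untreated mice.

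Grin3a, which encodes a subunit of the NMDA type of glutamate receptor, showed the widest difference among the 26. In naive mice its log2 level was 7.80, 7.53, 7.35, 7.26, 7.60, 7.59, 7.44 and 8.08. In untreated mice it was 3.04, 4.22, 2.83 and 5.72 in experiment 7 and 3.08, 2.73, 3.71 and 3.69 in experiment 10. The groups did not overlap, and the untreated array nearest to naive was 1 of experiment 7. The fitted change, which allows for the experiment, was a fall by 4.08 (SE 0.65, adjusted p = 5.5e-07), or 16.9-fold. A dimmer Grin3a probe set, below the filter, had means of 3.38 in naive and 2.13 in untreated mice.

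Among the other receptors of the list, Gfra1, the co-receptor through which Ret binds its ligand GDNF, ran from 4.41 to 5.92 in naive mice (median 5.19) and from 3.21 to 4.33 in untreated mice (median 3.76). It fell by 1.23 (SE 0.22, adjusted p = 6.1e-06; 2.35-fold), with no overlap. Ret itself, the signalling receptor of the GDNF family, was at 9.76 ± 0.12 (SD, n = 8) in naive and 9.61 ± 0.17 in untreated mice, and the change of -0.16 did not pass (95% interval -0.39 to 0.07, adjusted p = 0.263), although Ret was called lower in experiment 10 alone (-0.23, adjusted p = 0.0468). Ednrb, the endothelin receptor that enteric neural crest cells need and that other cells of the gut wall also carry, was at 11.64 ± 0.12 in naive and 11.86 ± 0.26 in untreated mice, a difference of 0.21 that did not pass (adjusted p = 0.0635). A second Ednrb probe set, at lower intensity, was called higher, by 0.42 (SE 0.15, adjusted p = 0.0208).

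The pan-neuronal genes were lower in untreated mice, with wide scatter. Uchl1, the abundant neuronal ubiquitin hydrolase PGP9.5, was at 8.04 to 8.71 in naive and 5.98 to 7.95 in untreated mice, without overlap. It fell by 0.85 (SE 0.27, adjusted p = 0.0064), but without the lowest untreated array (experiment 10, replicate 2) the change was -0.60 and no longer passed (adjusted p = 0.0503). Tubb3, the neuronal beta tubulin, ran from 5.82 to 6.97 in naive and from 4.20 to 6.65 in untreated mice, so that the groups overlapped. It fell by 0.81 (SE 0.33, adjusted p = 0.0352), and the call was lost when any 1 of 7 arrays was left out: 4 naive (replicates 1, 3, 6 and 8) and 3 untreated (experiment 10, replicates 2, 3 and 5), with changes between -0.56 and -0.79. Elavl4, the RNA-binding protein HuD, had a median of 8.01 in naive and 7.03 in untreated mice, and its change of -0.56 (SE 0.27) did not pass (adjusted p = 0.0774). In experiment 10 alone Elavl4 changed by -0.79 and passed (adjusted p = 0.0047). Dimmer Elavl4 probe sets above the filter had means of 6.13 and 3.60 in naive and 5.14 and 2.92 in untreated mice. Of these, 1 passed in the fit of both experiments, at -0.48 (adjusted p = 0.0377). Uchl1 and Tubb3 passed as well in experiment 10 alone, at -1.28 (adjusted p = 7.2e-05) and -1.65 (adjusted p = 3.0e-06). In that fit 47.9% of all genes tested were called.

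Both neurofilament-class genes above the filter fell, beside 25.6% of all genes tested, and Nefm could not be tested. Nefl, the neurofilament light chain, ran from 5.30 to 6.97 in naive mice (median 6.17). Its untreated values were 4.73, 4.37, 4.87 and 5.09 in experiment 7 and 4.90, 3.75, 4.23 and 4.20 in experiment 10. All 8 untreated arrays lay below the lowest naive array, and Nefl fell by 1.46 (SE 0.30, adjusted p = 6.6e-05; 2.74-fold). A second Nefl probe set fell by 1.73 (SE 0.31). Prph, the intermediate filament peripherin of peripheral neurons, fell by 0.80 (SE 0.24, adjusted p = 0.0053), from 5.68 to 6.82 in naive to 4.17 to 5.62 in untreated mice.

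Of the genes of vesicles, growth cones and adhesion, 5 of 7 fell, beside 25.6% of all genes tested. Syt1, the calcium sensor of synaptic vesicles, had a median of 4.10 in naive and 3.23 in untreated mice and fell by 0.81 (SE 0.12, adjusted p = 1.9e-07), with 1 untreated array of experiment 7 inside the naive range. Of the 8 untreated arrays 4 returned the repeated value near 3.24 and no naive array did, while the lowest untreated array was at 2.82. The brightest other Syt1 probe set, below the filter, pointed the other way, with means of 2.08 in naive and 2.46 in untreated mice. It was within 0.1 of the floor on 68 arrays. Snap25, a membrane fusion protein of the presynaptic terminal, fell by 0.62 (SE 0.11, adjusted p = 4.0e-06), from 10.41 to 11.01 in naive to 9.64 to 10.29 in untreated mice, and its second probe set fell by 0.59. Scg2, a granin of dense-core vesicles that enteroendocrine cells also make, was nearly constant in naive mice (9.38 to 9.54) and lay at 8.20 to 9.19 in untreated mice, a fall by 0.53 (SE 0.17, adjusted p = 0.0066). Stmn3, a regulator of microtubules in neurites, fell by 0.57 (SE 0.19, adjusted p = 0.0127), and its second probe set by 0.73. Without untreated replicate 2 of experiment 10 the Stmn3 change was -0.44 (adjusted p = 0.0606), and in experiment 10 alone it was -0.87 (adjusted p = 9.5e-07). L1cam, an adhesion molecule of axons, fell by 0.30 (SE 0.070, adjusted p = 2.8e-04), with overlapping groups (10.48 to 11.10 and 10.35 to 10.76).

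The related gene Stmn2, another microtubule regulator of growing neurites, was read differently by its probe sets. The brighter one was at 8.00 to 8.48 in naive mice and at 9.55, 9.54, 8.91, 7.90, 8.05, 7.85, 8.06 and 9.59 in untreated mice, a rise by 0.60 (SE 0.26, adjusted p = 0.0455). Thus 4 untreated arrays were above all naive arrays and the other 4 lay between 7.85 and 8.06. The call was lost when any 1 of 10 arrays was left out (untreated replicates 1, 2 and 3 of experiment 7 and 5 of experiment 10, and naive replicates 1, 2, 3, 4, 5 and 8), and in experiment 10 alone the change was 0.19 (adjusted p = 0.498). The dimmer Stmn2 probe set pointed the other way, at -0.68 (SE 0.32, adjusted p = 0.0808). Gap43, a growth cone protein, was at 2.80 to 2.99 in untreated and 2.92 to 3.50 in naive mice, and its difference of -0.16 did not pass (adjusted p = 0.0646), although it did in experiment 10 alone (-0.21, adjusted p = 0.0376).

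**Figure D2:**
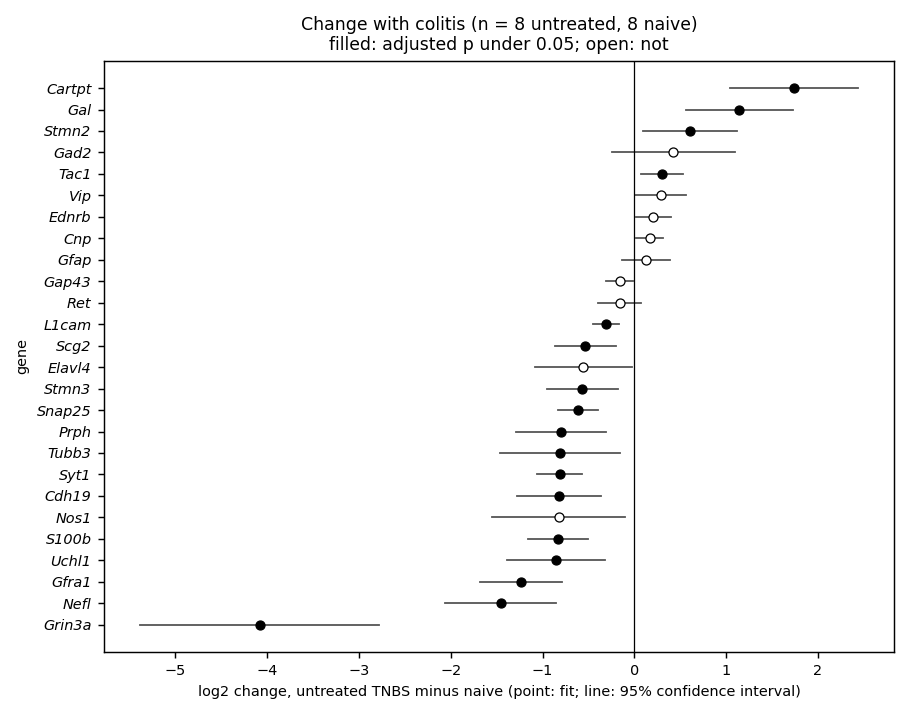
Fitted log2 change of the 26 genes above the filter between untreated TNBS and naive mice (n = 8 and 8), with 95% confidence intervals; filled points passed an adjusted p of 0.05 and open points did not. Grin3a is lowest at -4.08 and Cartpt highest at 1.74, with 13 filled points below 0 and 4 above.

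Of the 6 tested transmitter and neuropeptide genes 3 rose and none was called lower, beside 22.2% higher and 25.6% lower over all genes. Cartpt, which encodes the neuropeptide precursor CART, was at 6.05, 5.82, 5.58, 5.66, 5.68, 5.60, 6.05 and 5.22 in naive mice. It was at 8.34, 7.73, 8.44 and 7.26 in untreated mice of experiment 7 and at 7.95, 7.62, 5.91 and 7.80 in those of experiment 10. All but 1 of the untreated arrays exceeded every naive array. Cartpt rose by 1.74 (SE 0.35, adjusted p = 3.6e-05; 3.35-fold). Gal, the gene of the neuropeptide galanin, had a median of 9.49 in naive (9.18 to 9.64) and 10.75 in untreated mice (9.60 to 11.34) and rose by 1.15 (SE 0.29, adjusted p = 8.5e-04; 2.21-fold). The array lowest for Cartpt was also the lowest untreated array for Gal. Tac1, the precursor of substance P in excitatory neurons and in some enteroendocrine cells, rose by 0.30 (SE 0.11, adjusted p = 0.0253), with ranges of 11.95 to 12.19 in naive and 11.98 to 12.65 in untreated mice. Without untreated replicate 3 of experiment 7 its change was 0.25 (adjusted p = 0.0623), and in experiment 10 alone it was 0.21 (adjusted p = 0.0376).

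The remaining 3 transmitter genes did not pass. Nos1, the nitric oxide synthase of inhibitory neurons, was at 5.52 to 6.18 in naive and 4.13 to 6.35 in untreated mice, a change of -0.82 (SE 0.36, adjusted p = 0.0547), and in experiment 10 alone it changed by -1.18 and passed. Vip, the peptide of inhibitory motor and secretomotor neurons, differed by 0.29 (SE 0.14, adjusted p = 0.0814). Gad2, an enzyme that makes the transmitter GABA, differed by 0.42 (SE 0.34, adjusted p = 0.304).

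Among the glial genes, S100b, a calcium-binding protein of glia, was at 4.45, 2.81, 3.78, 3.84, 3.03, 2.70, 3.68 and 2.53 in naive mice and between 2.08 and 2.53 in untreated mice. It fell by 0.83 (SE 0.17, adjusted p = 3.0e-05), but 5 of the 8 untreated arrays returned the repeated value near 2.54, and the lowest naive array was apart from the highest untreated one only in the third decimal. Cdh19, a cadherin of neural crest derivatives and peripheral glia, was at 7.55 to 7.96 in naive mice. In untreated mice it was at 6.77, 7.81, 7.28 and 6.64 in experiment 7 and at 6.24, 6.24, 7.20 and 7.55 in experiment 10. The groups overlapped, and Cdh19 fell by 0.82 (SE 0.23, adjusted p = 0.0026). Gfap, the glial filament protein, differed by 0.13 (adjusted p = 0.438) and Cnp, a membrane enzyme of myelinating glia, by 0.17 (adjusted p = 0.0588), and neither passed. Melanocytes share the neural crest origin, and 4 of their 6 markers (Dct, Tyr, Tyrp1 and Mlana) were within 0.1 of the floor on over 90% of arrays.

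Further genes of the same cells were counted against the same 25.6% lower and 22.2% higher over all genes. Of 22 tested genes of a list of enteric neuron genes (45 listed), 12 fell and 2 rose. Nmu, the peptide neuromedin U, fell by 2.95 (SE 0.50), Calb2, the calcium-binding protein calretinin, by 2.53 (SE 0.44) and Grp, gastrin-releasing peptide, by 1.55 (SE 0.37), whereas Elavl2, a further RNA-binding protein of the Elavl family, rose by 1.77 (SE 0.51). Of 8 further glial genes tested (12 listed), 4 fell and 2 rose: Fabp7, a fatty acid binding protein, rose by 2.61 (SE 0.41) and Gpm6b, a membrane proteolipid, by 0.52 (SE 0.10), while Gpm6a fell by 0.84 (SE 0.32) and Ptprz1, a receptor phosphatase, by 0.68 (SE 0.22). Among 6 tested ligands and receptors that pair with the listed genes (15 listed), 4 fell and 1 rose. Npy1r, a receptor of neuropeptide Y, fell by 1.01 (SE 0.15), Edn3, the endothelin that acts through Ednrb, by 0.54 (SE 0.19) and Vipr1, a receptor of Vip, by 0.30 (SE 0.094), while Nrg1, a ligand of glial Erbb receptors, rose by 0.59 (SE 0.21). The adjusted p of these 12 genes ran from 2.1e-07 to 0.0242.

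Markers of other cells moved in the same comparison. The mean of 14 smooth muscle markers was 12.09 to 12.26 in naive and 11.26 to 11.79 in untreated mice, without overlap, and 13 of them fell. Of 11 tested enteroendocrine markers 6 fell and 1 rose (mean 8.93 to 9.27 in naive, 8.47 to 8.96 in untreated mice), all 8 colonocyte markers fell (13.64 to 13.74 against 12.75 to 13.24), and all 7 tested neutrophil markers rose (3.04 to 4.88 against 9.24 to 12.15). Of the 3 tested markers of interstitial cells of Cajal, the pacemaker cells beside the neurons, 2 fell. With the smooth muscle mean as a covariate, 8 of the 26 genes were called in place of 17, and 27.1% of all genes tested in place of 47.8%. Under that covariate Grin3a (-2.68), Gfra1 (-0.70), S100b (-0.49), Syt1 (-0.48), L1cam (-0.22), Cartpt (1.09) and Gal (0.91) were still called and Cnp (0.30) was newly called, whereas Uchl1 (0.01), Tubb3 (0.08), Scg2 (-0.02), Prph (-0.08), Stmn3 (0.17), Tac1 (0.11), Snap25 (-0.27), Nefl (-0.29), Cdh19 (-0.53) and Stmn2 (0.73) were not. Since the smooth muscle mean did not overlap between these groups, the covariate cannot separate it from colitis. The part of the enteroendocrine, colonocyte and immune markers in these results was not tested.

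**Figure D3:**
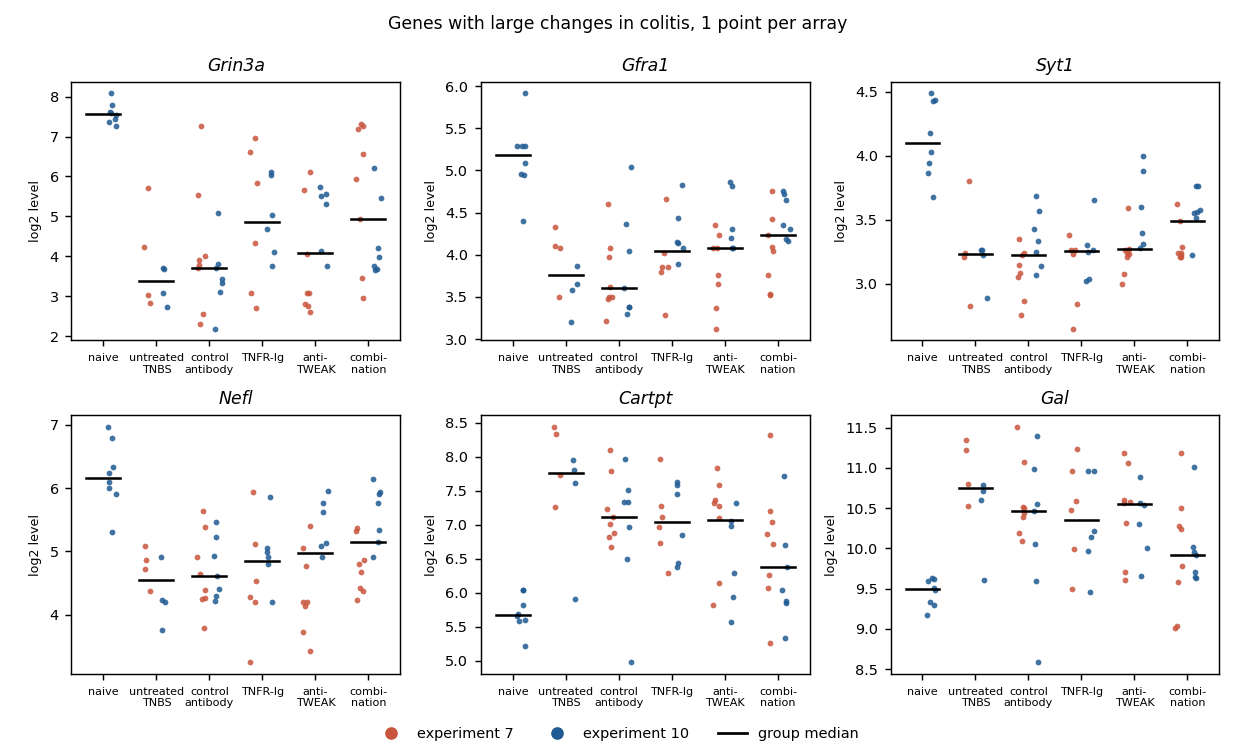
Log2 levels of Grin3a, Gfra1, Syt1, Nefl, Cartpt and Gal on each of the 72 arrays by group, with experiments 7 and 10 in different colours and the group median as a line. Grin3a spans 7.26 to 8.08 in naive mice and falls to medians between 3.39 and 4.93 in the 5 colitic groups, whose arrays scatter widely.

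The promoters of the listed genes were searched for the cyclic AMP response element (TGACGTCA, the same on both strands), a binding site of the CREB family through which activity drives neuropeptide genes, in the 250 bases before each start site. Of 22 listed genes with a RefSeq promoter (GRCm38.p6), 3 held it (Cartpt, Scg2 and Foxd3), against 1.77% of 27025 genes. The motif was chosen after the values were seen. The stretches of Cartpt, which had the largest rise in colitis among the 26 genes, and of Scg2, a gene that fell, are shown because both hold the element, in capitals, and their changes in colitis were opposite. Both lie on the minus strand, and the element ends 105 bases before the start in Cartpt and 61 bases before it in Scg2.
Cartpt, chr13:99900748-99900835: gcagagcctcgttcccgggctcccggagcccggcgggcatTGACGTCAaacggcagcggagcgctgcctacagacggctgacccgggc
Scg2, chr1:79440047-79440134: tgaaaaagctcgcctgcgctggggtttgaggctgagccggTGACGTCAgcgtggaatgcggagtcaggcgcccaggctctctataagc
The AP-1 element (TGACTCA or its complement TGAGTCA) was in 0 of these 22 promoters and in those of 5.16% of genes. These letters describe the windows searched and say nothing of which factors were bound.

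The combination was also set against naive mice, to see how far the genes stood from naive levels when both agents were given. This comparison shares its naive arrays with the one above. Of the 26 genes, 9 were called, 7 lower and 2 higher, against 25.3% of all genes tested (12.0% lower, 13.3% higher). The median difference was -0.30, against 0.01 over all genes. Grin3a was lower by 2.61 (SE 0.58), Nefl by 0.81 (SE 0.27), Gfra1 by 0.78 (SE 0.20), S100b by 0.65 (SE 0.15), Prph by 0.64 (SE 0.22), Syt1 by 0.59 (SE 0.11) and Snap25 by 0.31 (SE 0.097). Gad2 was higher by 0.89 (SE 0.30) and Cnp by 0.19 (SE 0.067). Their adjusted p ran from 3.9e-05 for Syt1 to 0.0277 for Cnp. Without naive replicate 1 the calls of Nefl (-0.70, adjusted p = 0.0572) and Prph were lost, without naive replicate 4 those of Prph and Cnp, and without naive replicate 8 that of Cnp. In experiment 10 alone Prph (-0.42, adjusted p = 0.0929) and Gad2 (0.57, adjusted p = 0.106) did not pass, and Uchl1 (-0.54, adjusted p = 0.0399) and Tac1 (0.29, adjusted p = 0.0023) did. With the smooth muscle mean as a covariate 5 genes were called (Grin3a, S100b, Syt1, Gad2 and Cnp), against 16.2% of all genes tested.

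Untreated mice were also set against those given the control antibody, to see what an antibody to a human protein did by itself. Of the 26 genes 3 were called, against 10.3% of all genes tested. Stmn2 ran from 6.50 to 8.54 with the antibody (median 7.85) and from 7.85 to 9.59 without (median 8.48), and was lower with the antibody by 0.86 (SE 0.22, adjusted p = 0.0085). It was lower by 1.41 in experiment 7 alone and by 0.29 in experiment 10 alone, neither called, and its dimmer probe set differed by -0.48 (adjusted p = 0.265). Ednrb was lower by 0.28 (SE 0.080, adjusted p = 0.0202), with medians of 11.57 and 11.89, and the call was lost without any 1 of 3 untreated arrays (replicates 1 and 2 of experiment 7 and 5 of experiment 10). L1cam was higher by 0.18 (SE 0.060, adjusted p = 0.0392), with medians of 10.79 and 10.61, and its call was lost without any 1 of 5 untreated arrays (replicates 2 and 3 of experiment 7 and 1, 2 and 3 of experiment 10). Gad2 (0.80, adjusted p = 0.0579) and Cdh19 (-0.44, adjusted p = 0.132) had the next smallest p and did not pass. Gad2 passed without untreated replicate 5 of experiment 7 (0.94, adjusted p = 0.0208) or replicate 1 of experiment 10 (0.92, adjusted p = 0.0361). Tubb3 was higher with the antibody by 1.10 (adjusted p = 0.0058) and Cnp by 0.24 (adjusted p = 0.0233) in experiment 10 alone.

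TNFR-Ig was set against the control antibody and, since neither group had an antibody, against no treatment. Against the control antibody 1 of the 26 genes was called, against 4.08% of all genes tested. It was Cdh19: the level was 5.68 to 7.58 with the control antibody (median 6.58) and 6.19 to 8.36 with TNFR-Ig (median 7.42), and 1 TNFR-Ig array, of experiment 7, lay below the control median. Cdh19 was higher by 0.85 (SE 0.17, adjusted p = 0.0032; 1.80-fold). It was higher by 1.20 in experiment 10 alone (adjusted p = 0.0017) and by 0.52 in experiment 7 alone. There no gene of the list and 0.0% of all genes tested were called. Ednrb (0.20), Gad2 (-0.72), Grin3a (1.10) and Gfra1 (0.27) had the next smallest p and did not pass (adjusted p from 0.0811 to 0.35). Ednrb (0.30) and Grin3a (1.43) passed as well in experiment 10 alone, where 15.6% of all genes tested were called. Against untreated mice 1 gene was called, L1cam, higher by 0.24 (SE 0.062, adjusted p = 0.0208), against 3.01% of all genes tested. Its call was lost without untreated replicate 2 of experiment 7 (0.22, adjusted p = 0.0558) or replicate 2 of experiment 10 (0.21, adjusted p = 0.0899). The untreated arrays enter this comparison and that of the control antibody alike. Stmn2 (-0.60), Grin3a (1.31), Cdh19 (0.41) and Cartpt (-0.57) did not pass there (adjusted p from 0.128 to 0.326). Cdh19 thus differed from the control antibody group and not, at this threshold, from untreated mice, whose median of 6.99 lay between those of the control antibody and TNFR-Ig groups.

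Anti-TWEAK was compared with the control antibody at the same dose. Of the 26 genes 2 were called, against 2.8% of all genes tested. Cdh19 was at 6.47 to 7.71 (median 7.15) and was higher by 0.62 (SE 0.17, adjusted p = 0.0281), at 0.74 in experiment 10 alone and 0.51 in experiment 7 alone, of which only the first passed. Gad2 was at 3.43 to 4.94 with anti-TWEAK (median 4.41) and 4.55 to 5.79 with the control antibody (median 5.05), and was lower by 0.82 (SE 0.24, adjusted p = 0.0476). The lowest control antibody level was the repeated value near 4.56. Gad2 was also lower in each experiment alone (-0.95 in experiment 10, adjusted p = 0.0296, and -0.71 in experiment 7, adjusted p = 0.602). Stmn2 (0.37), Syt1 (0.18) and Gfra1 (0.28) had the next smallest p and did not pass (adjusted p from 0.294 to 0.387).

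The experiments were also fitted apart. In experiment 10 alone 9 of the 26 genes were called for anti-TWEAK, against 14.9% of all genes tested. Of these, Grin3a (1.47), Prph (0.77), Cdh19 (0.74), Uchl1 (0.73), Elavl4 (0.62), Scg2 (0.59), Stmn3 (0.36) and Snap25 (0.26) were higher and Gad2 was lower. In experiment 7 alone none of the 26 was called, and 0.0% of all genes tested were. The difference between experiments was itself tested, and 1 gene passed, against 1.72% of all genes tested. For Scg2 the levels with anti-TWEAK were 8.98 to 9.60 in experiment 10 and 7.96 to 9.10 in experiment 7, while those with the control antibody were 7.88 to 9.09 and 8.40 to 9.19. The anti-TWEAK arrays of experiment 10 stood above most of the others. The effect in experiment 10 less that in experiment 7 was 0.77 (SE 0.21, adjusted p = 0.0431). Its direction was not shared: in experiment 7 the Scg2 mean was slightly lower with anti-TWEAK than with the control antibody. Prph (1.01, adjusted p = 0.071), Elavl4 (0.91), Nefl (0.97) and Uchl1 (0.80) had the next smallest p and did not pass (adjusted p up to 0.204). The mean of the smooth muscle markers had a median of 11.71 with anti-TWEAK and 11.58 with the control antibody, and with it as a covariate the Scg2 difference between experiments was not called (0.54, adjusted p = 0.248); nor was it with the Actb measure of RNA quality as a covariate (0.77, adjusted p = 0.0776) or with no filter on dim genes (adjusted p = 0.0646). For the other effects the difference between experiments passed for 0 of the 26 genes in limma: control antibody against no treatment (2 at an unadjusted p under 0.05; 0.016% of all genes called), TNFR-Ig against control antibody (1; 0.0%) and the combination against control antibody (5; 0.0319%).

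**Figure D4:**
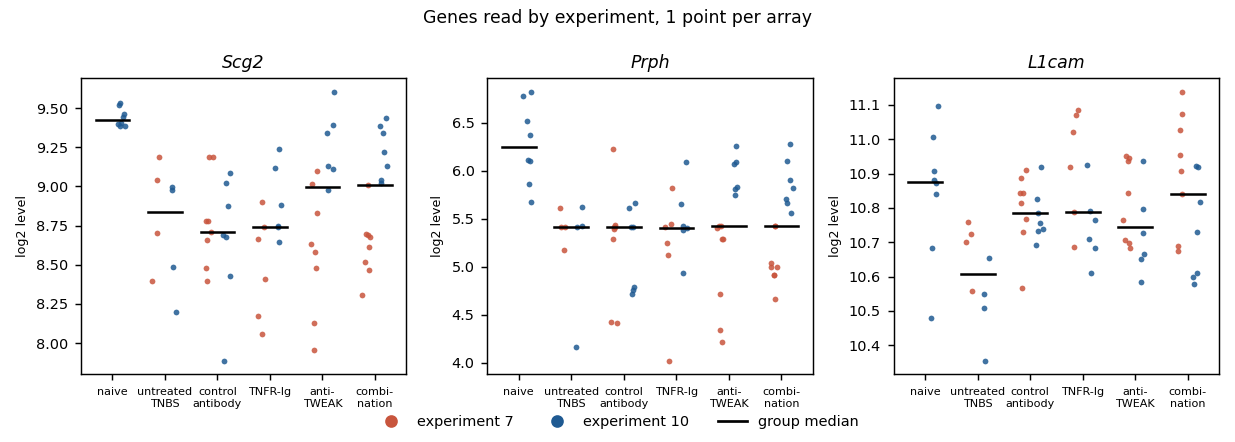
Log2 levels of Scg2, Prph and L1cam on each array by group, with experiments 7 and 10 in different colours and the group median as a line. The experiment 10 arrays of Scg2 lie at 8.98 to 9.60 with anti-TWEAK and 9.02 to 9.44 with the combination, and those with the control antibody at 7.88 to 9.09.

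The combination was compared with the control antibody to see what both agents together did. Of the 26 genes 4 were called, all higher, against 31.2% of all genes tested (14.2% higher, 17.0% lower), so the share was below the background. The median difference was 0.10, against 0.00 over all genes. Cdh19 was at 6.79 to 7.77 (median 7.27) and higher by 0.75 (SE 0.16, adjusted p = 5.2e-04; 1.68-fold), and it was called in each experiment alone (0.82 and 0.69). Grin3a ran from 2.96 to 7.31 with the combination (median 4.93) and from 2.19 to 7.25 with the control antibody (median 3.71), so that both groups spanned nearly the same range. It was higher by 1.26 (SE 0.46, adjusted p = 0.0321; 2.39-fold). Gfra1 was higher by 0.43 (SE 0.16, adjusted p = 0.0312), with medians of 4.24 and 3.61, and Syt1 by 0.22 (SE 0.088, adjusted p = 0.0477), with medians of 3.49 and 3.23. In neither experiment alone did Grin3a (0.90 and 1.57), Gfra1 (0.57 and 0.31) or Syt1 (0.21 and 0.23) pass. Without the 2 combination arrays of experiment 7 that carry the array name prefix of experiment 10, Syt1 was at 0.20 and lost its call (adjusted p = 0.0875). In experiment 10 alone 7 genes were called, all higher, against 17.55% of all genes tested in that fit. They were Nefl (0.86), Cdh19 (0.82), Elavl4 (0.73), Prph (0.66), Scg2 (0.56), Stmn3 (0.38) and Snap25 (0.30). Cartpt, the next by p, was lower by 0.57 (SE 0.25) and did not pass (adjusted p = 0.0683).

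Beside these values, 6 of 7 tested neutrophil markers were lower with the combination (mean 5.08 to 10.90, against 8.19 to 11.57 with the control antibody), and 2 of 14 smooth muscle markers were higher (11.16 to 12.12 against 11.25 to 11.91). Of the tested markers of other cells, 2 of 3 of interstitial cells of Cajal and 3 of 11 enteroendocrine markers were higher as well; the part of these markers in the result was not tested. With the smooth muscle mean as a covariate only Cdh19 was called (0.69, adjusted p = 0.0018), against 26.7% of all genes tested. Against the 31.2% of all genes called (14.2% higher), 5 of 22 further enteric neuron genes were called, all higher, among them Nmu (1.38, SE 0.36), Grp (0.93, SE 0.26), the synaptic vesicle gene Syn2 (0.29, SE 0.10) and the dendritic microtubule gene Map2 (0.25, SE 0.087). Of the further glial genes 4 of 8 were called, all higher: Gpm6a (0.67, SE 0.22), Entpd2, an ectonucleotidase (0.34, SE 0.072), the neuregulin receptor gene Erbb3 (0.17, SE 0.045) and the myelin gene Mbp (0.10, SE 0.034). Erbb3 had a mean level of 13.60, near the 13.72 of the colonocyte marker Vil1, and Mbp had one of 10.92. Which cells made this RNA was not tested. Of the paired ligands and receptors 1 of 6 was called, Nrg1, lower by 0.57 (SE 0.15).

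**Figure D5:**
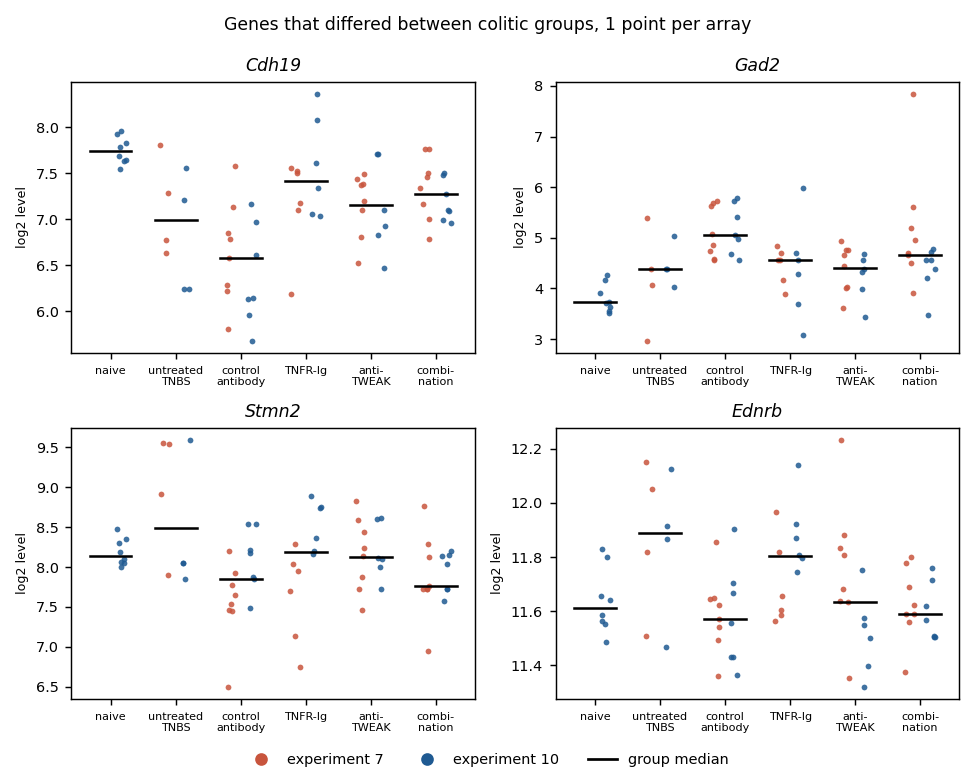
Log2 levels of Cdh19, Gad2, Stmn2 and Ednrb on each array by group, with experiments 7 and 10 in different colours and the group median as a line. The Cdh19 medians are 7.74 in naive, 6.99 in untreated and 6.58 in control antibody mice, and 7.15 to 7.42 in the 3 groups given TNFR-Ig, anti-TWEAK or both; 1 combination array reaches 7.84 for Gad2.

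Cdh19 was the gene of the list called in each of the 3 comparisons with the control antibody, which share those 15 arrays, so that a low level in that group enters all 3. The order of its medians was naive, TNFR-Ig, combination, anti-TWEAK, untreated and control antibody. The combination differed from TNFR-Ig by -0.10 (95% interval -0.45 to 0.25) and from anti-TWEAK by 0.14 (95% interval -0.20 to 0.47), and neither difference passed. Other neighbours in that order were not compared, apart from untreated and control antibody mice, given above.

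Against the single agents the combination called 0 of the 26 genes in limma. Compared with TNFR-Ig, 6 genes were under an unadjusted p of 0.05, and 6.71% of all genes were called; Syt1 (0.26, adjusted p = 0.0759), Ednrb (-0.18), Stmn3 (0.34), Elavl4 (0.44) and Cartpt (-0.56) had the smallest p (adjusted p up to 0.182). Compared with anti-TWEAK, 1 gene was under an unadjusted p of 0.05 and 0.0% of all genes were called; the smallest p were those of Gal (-0.42), Gad2 (0.48), Grin3a (0.82), S100b (0.20) and Stmn2 (-0.28), with adjusted p from 0.274 to 0.408. Departure from additivity, the effect of the combination against the control antibody less the sum of the effects of its agents, called 0 genes (4 at an unadjusted p under 0.05), against 0.319% of all genes. Gad2 came nearest at 1.20 (SE 0.35, adjusted p = 0.0865), followed by Cdh19 (-0.71), Ednrb (-0.25), Stmn2 (-0.54) and S100b (0.26), with adjusted p up to 0.504. The highest Gad2 value, 7.84, was on combination replicate 5 of experiment 7, and without that array Gad2 was at 0.98 (adjusted p = 0.0735). On the same array the mean of the exocrine pancreas markers was 11.90, seventh of 72 from the top in a range of 3.59 to 13.40, while Ins2, an islet gene, was at 2.08. Pancreatic islets also make Gad2, and 4 of the 5 islet markers on the array were within 0.1 of the floor on over 90% of arrays; the part of pancreas tissue in the Gad2 values was not tested.

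Experiment 10 was compared with experiment 7 through the experiment term of the fit, which rests on the 64 colitic arrays. Of the 26 genes 12 were called, 11 higher in experiment 10 and 1 lower, against 44.5% of all genes tested (28.3% higher, 16.2% lower). All 3 pan-neuronal genes were higher, Elavl4 by 0.62 (SE 0.13), Tubb3 by 0.51 (SE 0.16) and Uchl1 by 0.35 (SE 0.13), and so were both filament genes, Nefl by 0.46 (SE 0.15) and Prph by 0.41 (SE 0.12). Scg2 was higher by 0.32 (SE 0.082), Stmn3 by 0.31 (SE 0.095), Gfra1 by 0.26 (SE 0.11), Cnp by 0.21 (SE 0.037), Syt1 by 0.21 (SE 0.060) and S100b by 0.19 (SE 0.080). L1cam was lower by 0.12 (SE 0.034), and no transmitter or neuropeptide gene was called. The adjusted p ran from 2.8e-06 for Cnp to 0.048 for Gfra1. Beside these values, 6 of 11 enteroendocrine markers were higher in experiment 10, and 4 of 14 smooth muscle markers were higher and 1 lower. With the smooth muscle mean as a covariate 4 genes were called (Cnp, Elavl4, Scg2 and L1cam), against 35.45% of all genes tested. The Actb difference between 3 prime and 5 prime probe sets, a sign of RNA quality, had a median of 1.05 on the colitic arrays of experiment 7 (0.93 to 1.18) and of 1.14 on those of experiment 10 (1.015 to 1.5). With it as a covariate 3 genes were called (Cnp, Elavl4 and L1cam), and 2846 of all genes in place of 5577. Without the 2 combination arrays of the other name prefix Gfra1 (0.23, adjusted p = 0.0768) and S100b (0.19, adjusted p = 0.0526) were not called.

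The SD of each colitic group, taken over both experiments, was also set against that of naive mice, all of experiment 10. The difference between experiments thus enters the colitic SDs and not the naive one. The SD was wider than in naive mice for 20 of the 26 genes in untreated mice, 22 with the control antibody, 20 with TNFR-Ig, 22 with anti-TWEAK and 20 with the combination. The share over all genes was not counted. For Grin3a it was 0.26 in naive mice and between 0.99 and 1.54 in the colitic groups, and for Scg2 0.06 and between 0.34 and 0.47. The mean level of the 26 genes had an SD of 0.090 in naive mice, of 0.15 with the combination and of 0.23 to 0.25 in the other colitic groups. S100b, Syt1, Gap43 and L1cam were the reverse, with a wider SD in naive mice than in any colitic group (for S100b 0.68, against 0.094 to 0.40). The fits used 1 spread per gene for all groups.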

How the data were processed

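The values deposited by the authors are already normalised and were read as log2, from their range and their floor of 2.08. The submitters' processing notes name GCRMA and RMA beside limma 3.4.5 and R 2.11.1, without saying which of them produced these values. Array medians ran from 4.60 to 4.77 and 37.5% of values lay within 0.1 of the floor. The difference of the 3 prime and 5 prime Actb probe sets, a measure of RNA quality, ran from 0.93 to 1.50. The number of arrays limits the precision.

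Of 45101 probe sets, 34945 carry 1 symbol (99.4% updated by Entrez identifier). Each of the 18193 genes was read from its brightest probe set, and only genes at or above the 40th percentile of probe set means (2.42) were tested. In limma 3.58.1 under R 4.3.3, a model with the 6 groups and the experiment was fitted to all 72 arrays, with empirical Bayes moderation, two-sided tests and Benjamini-Hochberg adjustment over 12534 genes; genes were called at an adjusted p under 0.05. Differences between experiments used a model of the 11 groups by experiment. Changes are log2 differences with the standard error of the fit. The labels do not say which mice shared a cage or batch beyond the experiment. A naive mouse (replicate 1) carries a contradictory treatment entry; its title and source name say naive, and so it was used.

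The members and all gene lists were chosen with earlier results of these data known. In the colitis comparison every tested member is given; elsewhere the called members are named, with those of the smallest p up to 5. Further neuron, glia and paired genes are counted, with up to 4 called genes by size named in the colitis comparison and that of the combination with the control antibody. Genes on marker lists of other cells are counted only. Alternatives were no filter, every probe set, no experiment term, a replicate block, each experiment alone, quantile normalization, the compared groups alone, leaving out arrays, and covariates for smooth muscle and Actb. The scripts were tested on simulated data.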

Additional observations from a re-analysis of the deposited data

Results flagged for a closer look

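A single array stood apart from the other untreated TNBS arrays for 4 genes, by the gap to its nearest neighbour relative to the range of the 8. Untreated replicate 3 of experiment 10 was lowest for Cartpt, at 5.91 (next 7.26), and for Gal, at 9.60 (next 10.53). Untreated replicate 5 of experiment 7 was highest for Syt1, at 3.80 (next 3.26). Untreated replicate 2 of experiment 10 was lowest for Prph, at 4.17 (next 5.18). Of 52 groups of values examined, these 4 passed the limit, and chance alone passes about 1 in 20.

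The effect of anti-TWEAK against the control antibody on Scg2 differed between experiments by 0.77, in a test of that difference. The call was lost with the smooth muscle covariate (0.54, adjusted p = 0.248), with the Actb covariate (0.77, adjusted p = 0.0776) and with no filter on dim genes (0.77, adjusted p = 0.0646).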

How the results depend on the processing

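The values are bounded by probe set intensity: 6 of the 32 genes could not be tested, and S100b, Gap43, Gfap and Syt1 lay near the floor. Of 175 counts recomputed under alternatives, 145 stayed within 1.5 times the count reported, 24 were lower and 6 higher. The combination against TNFR-Ig and against anti-TWEAK kept 0 calls under every alternative run. With the smooth muscle mean as a covariate the counts were 8 for colitis (17), 5 for the combination against naive (9), 1 for the combination against control antibody (4), 4 for the experiment (12) and 0 for the difference between experiments with anti-TWEAK (1), and Uchl1 (0.0061), Stmn3 (0.17) and Tubb3 (0.078) changed sign in colitis; this covariate itself differed between groups. Over all genes tested, the smooth muscle covariate gave 27.1% for colitis (47.8%) and 16.2% for the combination against naive (25.3%). It gave 26.7% for the combination against control antibody (31.2%), 35.45% for the experiment (44.5%) and 0.22% for the anti-TWEAK difference between experiments (1.72%). With the Actb covariate the experiment count was 3 (22.71% of all genes) and the anti-TWEAK difference 0 (0.68%), as it was with no filter (0.81%). In experiment 10 alone the counts were 3 for TNFR-Ig against control antibody (1), 2 for TNFR-Ig against untreated (1), 9 for anti-TWEAK (2) and 7 for the combination against control antibody (4); in experiment 7 alone they were 0, 0, 0 and 1, and 0 for control antibody against untreated (3). Over all genes tested the shares called, in the same order, were 15.6%, 6.29%, 14.9% and 17.55% in experiment 10 alone. In experiment 7 alone they were 0.0%, 0.0%, 0.0%, 8.45% and 0.05%. Fewer arrays enter these fits. With the compared groups alone, control antibody against untreated and anti-TWEAK each gave 1 (5.67% and 3.19% of all genes) and TNFR-Ig against untreated 0 (0.96%). Anti-TWEAK also gave 1 with no filter (1.36% of all genes), with no experiment term (1.62%) and with quantile normalization (2.76%). Departure from additivity gave 1 (Gad2) without the 2 combination arrays of the other array name prefix, beside 1.76% of all genes. Leaving out single arrays gave 15 to 20 for colitis (44.75% to 49.14% of all genes) and 7 to 10 for the combination against naive (22.12% to 24.6%). It gave 1 to 5 for control antibody against untreated (4.89% to 17.07%) and 0 to 1 for TNFR-Ig against untreated (1.16% to 6.13%). The control antibody count was 1 without untreated replicate 2 of experiment 7 (5.79%) and 5 without replicate 5 (17.07%). What caused these changes in the counts was not tested. The smooth muscle mean did not overlap between naive and untreated mice, so as a covariate it cannot be separated from colitis.

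Same-numbered arrays of different groups did not deviate together (median correlation -0.005 over 132 pairs, against 0.007 over 921 pairs of other numbers), so the numbers do not pair the mice. With the replicate number as a block, colitis gave 14 calls, anti-TWEAK 1 and TNFR-Ig against untreated 0. The shares of all genes tested were 41.9%, 1.72% and 1.03%.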
